A study of Mus musculus with 4 samples.

Results

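Gingival keratinocytes that carried the keratin mRNAs of a keratinizing surface, chiefly Krt76, were chosen from single-cell RNA libraries of mouse gingiva by their counts of unique molecular identifiers (UMIs, the count of distinct captured mRNA molecules). A barcode was a member when it held at least 200 genes, at most 20% mitochondrial UMIs, fewer than 10000 UMIs in all, at least 5 UMIs of Krt1, Krt10 and Krt76 together and fewer than 10 UMIs of Krt4 and Krt13 together. Fewer than 3 of 8 mitotic genes could be detected (Ube2c, Cdc20, Hmmr, Nusap1, Cenpf, Cenpa, Ccnb2, Aurka), and the salivary gland transcripts Dcpp1, Dcpp2, Dcpp3 and Bpifa2 had to stay under 10% of UMIs. The members were 217 of 7134 barcodes that passed the gene and mitochondrial limits (3.04%). The levels of these genes therefore describe the choice and are no finding about the cells, and every other gene of the same barcodes was read at the same time as the genes that chose them.

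Gingiva was cut from around the upper jaw teeth of mice, digested with collagenase and DNase, and made into 4 10x Genomics libraries, 1 for each of 4 groups. The groups were diseased gingiva treated with metformin, diseased gingiva without it, gingiva with metformin treatment alone, and healthy gingiva without treatment. Metformin is a biguanide drug used to lower blood glucose, and the series is titled as a study of its use in preventing periodontal disease. How the disease was brought about, the strain, age and number of mice, whether animals were pooled, and the dose and length of treatment are not given in the labels used here. With 1 library in each group there was no test between groups, and every difference below is one between 2 libraries, with no replicate check.

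Stratified oral epithelium renews itself from a basal layer that makes keratins 5 and 14, and cells leaving that layer switch to pairs of suprabasal keratins that depend on the site. Keratinized surfaces such as the attached gingiva and hard palate make Krt1, Krt10 and, in mouth epithelium, Krt76, whereas soft lining mucosa makes Krt4 and Krt13. Krt6a, Krt6b, Krt16 and Krt17 are a further set, known for their induction in wounded or inflamed epithelium and for constant expression at some oral and appendage sites.

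The 5′ flanks of 3 keratins of these cells are shown because Krt76 and Krt10 chose most of the members and Krt24 marks them outside the rule. Each sequence is the 250 bases before the annotated start site in RefSeq GRCm38.p6, read on the minus strand, at chr15:101892921-101893170 for Krt76, chr11:99389365-99389614 for Krt10 and chr11:99285263-99285512 for Krt24. Capitals mark TATAA on the sense strand and CACCC on either strand, where a reverse-strand match is printed as GGGTG.
Krt76: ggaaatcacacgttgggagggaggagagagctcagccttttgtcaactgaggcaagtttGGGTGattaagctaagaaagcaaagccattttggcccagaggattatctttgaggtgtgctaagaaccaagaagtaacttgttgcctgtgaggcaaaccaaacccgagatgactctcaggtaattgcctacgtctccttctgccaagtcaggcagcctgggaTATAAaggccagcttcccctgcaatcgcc
Krt10: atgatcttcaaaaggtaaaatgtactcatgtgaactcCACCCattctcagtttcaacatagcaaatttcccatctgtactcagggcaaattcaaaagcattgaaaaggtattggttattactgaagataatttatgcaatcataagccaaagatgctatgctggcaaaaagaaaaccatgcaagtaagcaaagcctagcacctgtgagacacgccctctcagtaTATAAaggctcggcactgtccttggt
Krt24: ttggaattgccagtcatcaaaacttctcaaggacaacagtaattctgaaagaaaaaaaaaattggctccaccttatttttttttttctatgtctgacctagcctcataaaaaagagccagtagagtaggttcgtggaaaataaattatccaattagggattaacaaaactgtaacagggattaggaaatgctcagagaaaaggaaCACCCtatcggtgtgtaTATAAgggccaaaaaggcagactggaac
All 3 windows hold TATAA, with its first base at -29 in Krt76, -26 in Krt10 and -28 in Krt24 relative to the start site. Among 32851 promoter windows of the same length, 5255 hold TATAA on the sense strand. CACCC begins at -191, -213 and -45 in the same order of genes, and 17087 of all windows hold it on one strand or the other (52.0%). The AP-1 letters TGANTCA, on either strand, are in none of the 3 windows and in 6.75% of all windows. These matches describe the letters of the windows and nothing about binding. In the annotation of the same build the Krt76 gene spans 101884351 to 101892920 on chromosome 15, in the type II keratin cluster with Krt5, Krt6a and Krt6b, and Krt10, Krt24, Krt16 and Krt15 lie in the type I cluster on chromosome 11.

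Each library gave a like number of members, 57 in disease plus metformin, 50 in disease, 56 in metformin and 54 in healthy gingiva. As a share of kept barcodes this was 3.44% (exact Clopper-Pearson 95% interval 2.62 to 4.43) in disease plus metformin, 2.95% (2.20 to 3.88) in disease, 2.26% (1.71 to 2.93) in metformin and 4.13% (3.12 to 5.36) in healthy gingiva. The metformin library had the lowest share and the healthy library the highest, and of all pairs only those 2 had intervals that did not overlap. Among barcodes that passed a keratinocyte gate (members, Krt4 and Krt13 barcodes, barcodes with both keratin sets, and barcodes with at least 10 UMIs of Krt5 and Krt14), members made up 10.2%, 6.60%, 5.89% and 9.85% in the order of the groups above. Shares of barcodes depend on how the tissue was cut and digested as well as on how many such cells it held, and these cannot be told apart.

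The deposited matrices held 1893, 1972, 2814 and 1616 barcodes, with 13025479, 14151700, 22333858 and 12507787 UMIs, in the same order of groups. No doublet caller was run, and the ceiling of 10000 UMIs was the only step that bears on doublets. No member barcode sequence occurred in more than 1 library, although 8 barcodes of all kinds did. Of kept barcodes with endothelial markers, which should lack Krt76, 0 of 20, 0 of 60, 3 of 40 and 3 of 28 held a Krt76 UMI, at median depths of 3074.5, 2804, 4928.5 and 2643 UMIs, and 1 held 5 or more. Krt76 was in 54 of 57, 46 of 50, 50 of 56 and 50 of 54 members at lower median depths. As the rule counted Krt76, these member shares follow from the choice of barcodes and are no check on free RNA. Barcodes with at least 10 UMIs of fibroblast genes held Krt76 in 52.9%, 26.8%, 38.0% and 39.7% of cases, at median depths of 6364, 8468, 7584 and 10651 UMIs. At least 5 UMIs of Krt76 were in 16 of 51, 22 of 138, 36 of 216 and 11 of 58 of them. Most also held at least 5 UMIs of Krt14 (40 of 51, 83 of 138, 168 of 216 and 39 of 58), and for that reason they were not taken as a background. Whether their keratin UMIs were free RNA was not tested.

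Members differed in depth between libraries. The median member held 2154 UMIs in disease plus metformin, 1304.5 in disease, 1849.5 in metformin and 1194 in healthy gingiva, over a range of 500 to 8635 in all. The summed member counts were 157257, 96214, 137760 and 86107 UMIs, so that 1 UMI was worth 6.36, 10.4, 7.26 and 11.6 CPM (UMIs of a gene per 1000000 UMIs summed over the members of a library). Since the gate was a fixed number of raw UMIs, deep barcodes passed it with a smaller share of gate keratins. The gate keratins took a median of 0.753%, 0.841%, 0.663% and 1.06% of a member's UMIs, from a low of 0.0679% to a high of 9.41%. For the genes the results turn on, differences between libraries are therefore also given for the members with under 2000 UMIs, of which there were 28, 37, 29 and 43.

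Krt76, the keratin that names these cells and a type II keratin of palate and gingiva, was the usual reason for passing the gate. It was detected in 200 of the 217 members, and 179 held at least 5 UMIs of it. Krt10, a type I keratin of keratinizing layers, was in 96 members and Krt1, its usual partner in skin, in 14. Krt76 and Krt10 were found together in 81 members. The 17 members with no Krt76 passed on Krt10 and Krt1 only. At the threshold itself, 32 members held exactly 5 UMIs of the 3 keratins and 41 barcodes that met all other conditions held 4. On the Krt4 and Krt13 side, 11 members held 8 or 9 UMIs of these, and 14 barcodes with 10 to 12 were left out.

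Krt76 stood at 4718 CPM (exact Poisson 95% interval 4385 to 5070) in disease plus metformin, 7109 (6586 to 7662) in disease, 4900 (4537 to 5284) in metformin and 7607 (7035 to 8212) in healthy members. The 2 metformin libraries were low and the 2 others high, without overlap of their counting intervals. Among members under 2000 UMIs that order was not seen, with 9421, 10131, 10532 and 9294 CPM. Krt10 stood at 388 CPM (297 to 498), 1185 (977 to 1423), 1321 (1136 to 1528) and 1080 (872 to 1323), so disease plus metformin was the low library. Krt1 came from few barcodes, at 229, 52.0, 160 and 453 CPM, with 1 barcode holding from 33.3% (healthy) to 100% (disease) of its UMIs. Intervals here and below treat every UMI as an independent draw and cover counting error only.

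Of the 4 markers outside the rule, Krt24 and Selenbp1 were in many members of every library, Krt16 was in few members of disease plus metformin, and Spink5 was sparse in all. Krt24, a type I keratin, was at 916 CPM (772 to 1078) in disease plus metformin, 1559 (1320 to 1829) in disease, 1394 (1204 to 1605) in metformin and 1579 (1325 to 1868) in healthy members, and it was in 41, 37, 48 and 39 of them. Disease plus metformin was the low library, and its interval lay below the 3 others, which overlapped. Selenbp1, a selenium-binding protein with methanethiol oxidase activity, was at 1024 CPM (872 to 1195), 1122 (921 to 1355), 849 (702 to 1018) and 1545 (1293 to 1831) in the same order of groups. The healthy library was the high one for Selenbp1, with an interval that overlapped only that of disease. Spink5, which encodes the serine protease inhibitor LEKTI, had 7, 13, 17 and 9 UMIs in 6, 11, 10 and 4 members, at 44.5, 135, 123 and 105 CPM. Spink5 was thus too sparse to mark single barcodes at this depth.

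Krt16, the type I stress keratin, was the most uneven of the markers. It stood at 795 CPM (662 to 947) in disease plus metformin, 3607 (3237 to 4007) in disease, 1677 (1468 to 1908) in metformin and 1765 (1496 to 2069) in healthy members, and was detected in 10, 25, 27 and 23 of them. Disease was the high library, disease plus metformin the low one, and metformin and healthy gingiva overlapped between them. One barcode held 44.0% of the Krt16 UMIs in disease plus metformin, and the leading barcode held 26.2%, 24.7% and 19.7% in the others. Endothelial barcodes, deeper than the members, held a Krt16 UMI in 0 of 20, 1 of 60, 1 of 40 and 0 of 28 cases.

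**Figure D1:**
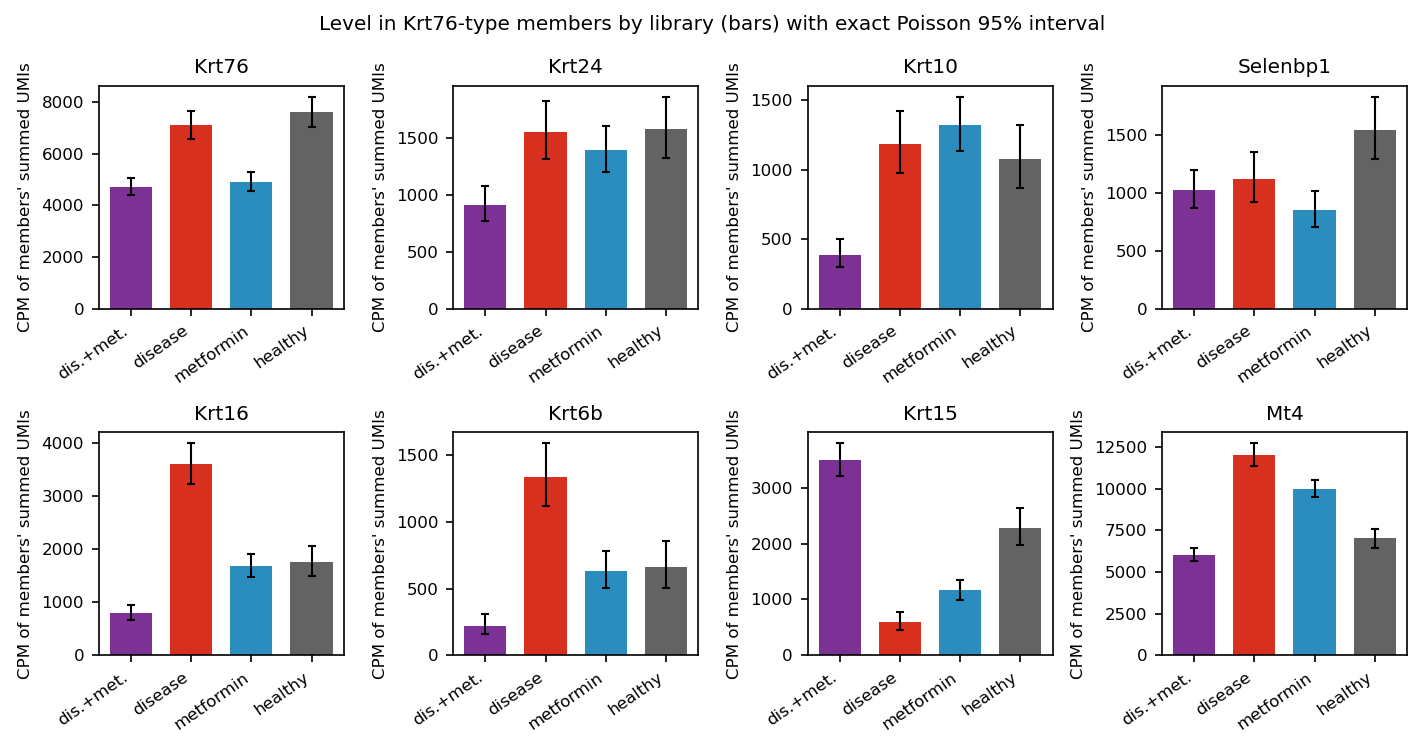
Level of 8 genes in the members of each library, in CPM of the summed member counts, with bars for 1 library each and lines for the exact Poisson 95% interval (counting error only). Krt16 and Krt6b were highest in disease and lowest in disease plus metformin, Krt15 was highest in disease plus metformin (3497 CPM) and lowest in disease (603 CPM), and Krt76 was lower in both metformin libraries.

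Set against all other kept barcodes of the same library, the genes with the highest lowest log2 ratio over the 4 libraries were, after Krt76 (4.36), Cryba2 (3.80), Krt10 (3.41), Krt16 (3.29), Krt24 (2.62), Gcat (2.09), Calm4 (2.05), Selenbp1 (2.01), Aqp3 (1.99) and Krt6a (1.95). Dapl1, Krt6b, Pmvk, Gsta2 and Klk8 completed the leading 15, down to 1.59. This ranking follows from the choice of the barcodes and carries no test. Of the leading genes, Cryba2 encodes a beta-crystallin best known from the lens, Gcat an enzyme of threonine breakdown, Calm4 a calmodulin-like protein, Aqp3 a water and glycerol channel of epidermis, and Pmvk phosphomevalonate kinase of the sterol pathway. Cryba2 was in 10, 17, 12 and 12 members of the 4 libraries, so it did not mark every member. Of the 4 markers outside the rule, Krt24, Krt16 and Selenbp1 were among the leading 15 and Spink5 was not.

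The members were next set beside 3 other groups of keratinocyte barcodes. These were the 72 that passed both keratin gates (12, 9, 28 and 23 in the 4 libraries), the 406 with at least 10 UMIs of Krt4 and Krt13 alone and the 2120 with basal keratins and neither set of suprabasal ones. As no test was made on barcodes chosen by their keratins, the folds below are descriptions. Krt24 was 2.63 to 20.8 times the level of Krt4 and Krt13 barcodes over the 4 libraries, and 3.74 to 6.37 times that of basal barcodes. Krt16 was 3.20 to 49.7 times and 2.41 to 7.62 times those levels, and Cryba2 3.38 to 49.0 times and 13.7 to 75.7 times. Dapl1, Pmvk, Gcat, Perp, a tetraspan protein of desmosomes, and Lgals3 were also higher in members than in both of these groups in all 4 libraries, Perp by 1.02 to 1.38 times against Krt4 and Krt13 barcodes. Selenbp1 was 0.793 to 2.23 times the level of Krt4 and Krt13 barcodes, lower only in metformin (849 and 1072 CPM), and 7.01 to 20.9 times that of basal barcodes. The sparse marker Spink5 was 0.359 to 2.94 times the level of Krt4 and Krt13 barcodes, higher only in healthy gingiva (105 and 35.5 CPM). Against basal barcodes Spink5 was at 1.72 to 3.91 times.

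Barcodes with both keratin sets stood above the members for several of these genes. Krt24 was at 1939, 2561, 1535 and 1804 CPM in them, against 916, 1559, 1394 and 1579 CPM in the members. Krt16 was at 6776, 6090, 3486 and 2182 CPM in barcodes with both sets, again above the members in all 4 libraries, as was Selenbp1 at 2252, 1749, 1406 and 2199 CPM. Cryba2, at 548, 406, 666 and 893 CPM, was above the members in 3 libraries and below them in disease. These marker levels therefore did not single out the members among barcodes that passed the keratin gate. The barcodes with both sets had median depths of 4440, 923, 2948.5 and 2382 UMIs, and whether they held 1 cell or 2 was not tested.

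A wider set of differentiation genes lay between the Krt4 and Krt13 barcodes and the basal ones. Krtdap, a secreted keratinocyte differentiation protein, stood in members at 0.393 to 0.647 of its level in Krt4 and Krt13 barcodes and at 2.34 to 5.02 times that of basal barcodes. Mt4, the metallothionein of stratified epithelia, stood at 0.330 to 0.567 and at 3.43 to 5.29 times those levels. Fabp5, the epidermal fatty acid-binding protein, stood at 0.716 to 0.793 and 3.99 to 7.06 times. Tgm3, a transglutaminase that crosslinks envelope proteins, stood at 0.214 to 0.358 and 5.77 to 39.6 times. Sbsn, Dmkn, Sfn, Serpinb12, Ly6d and Lypd3 had the same order in all 4 libraries, with members lower than Krt4 and Krt13 barcodes and higher than basal ones. In barcodes with both sets, Krtdap, Mt4, Fabp5 and Tgm3 were higher than in the members in all 4 libraries.

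The members also held basal keratin mRNA. Krt14 was in 53 of 57, 49 of 50, 54 of 56 and 52 of 54 members, at 18994, 24529, 19766 and 17385 CPM, which was 0.949 to 1.47 times the level of basal barcodes. Krt15 was above the level of basal barcodes in all 4 libraries, at 1.19 to 4.67 times it. Krt5 stood at 0.481 to 0.936 of the basal level, and the basal adhesion and regulator genes stood lower still, Trp63 at 0.151 to 0.487, Col17a1 at 0.0504 to 0.359 and Itga6 at 0.0289 to 0.656. The median member held 36, 34.5, 27.5 and 14 Krt14 UMIs, whereas 0 of 20, 1 of 60, 1 of 40 and 1 of 28 barcodes with endothelial markers held 5 or more. Of the barcodes with fibroblast genes, 40 of 51, 83 of 138, 168 of 216 and 39 of 58 held 5 or more. A second cell in the barcode and mRNA kept from the basal state cannot be told apart here. Krt13 was still at 693, 800, 828 and 1510 CPM, below the 10-UMI gate in each barcode, and Krt19 and Mal of lining mucosa were at 0 in members of all 4 libraries. In Krt4 and Krt13 barcodes these were near 0 too, with 0, 1, 0 and 0 UMIs of Krt19 and 0, 8, 5 and 0 of Mal.

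**Figure D2:**
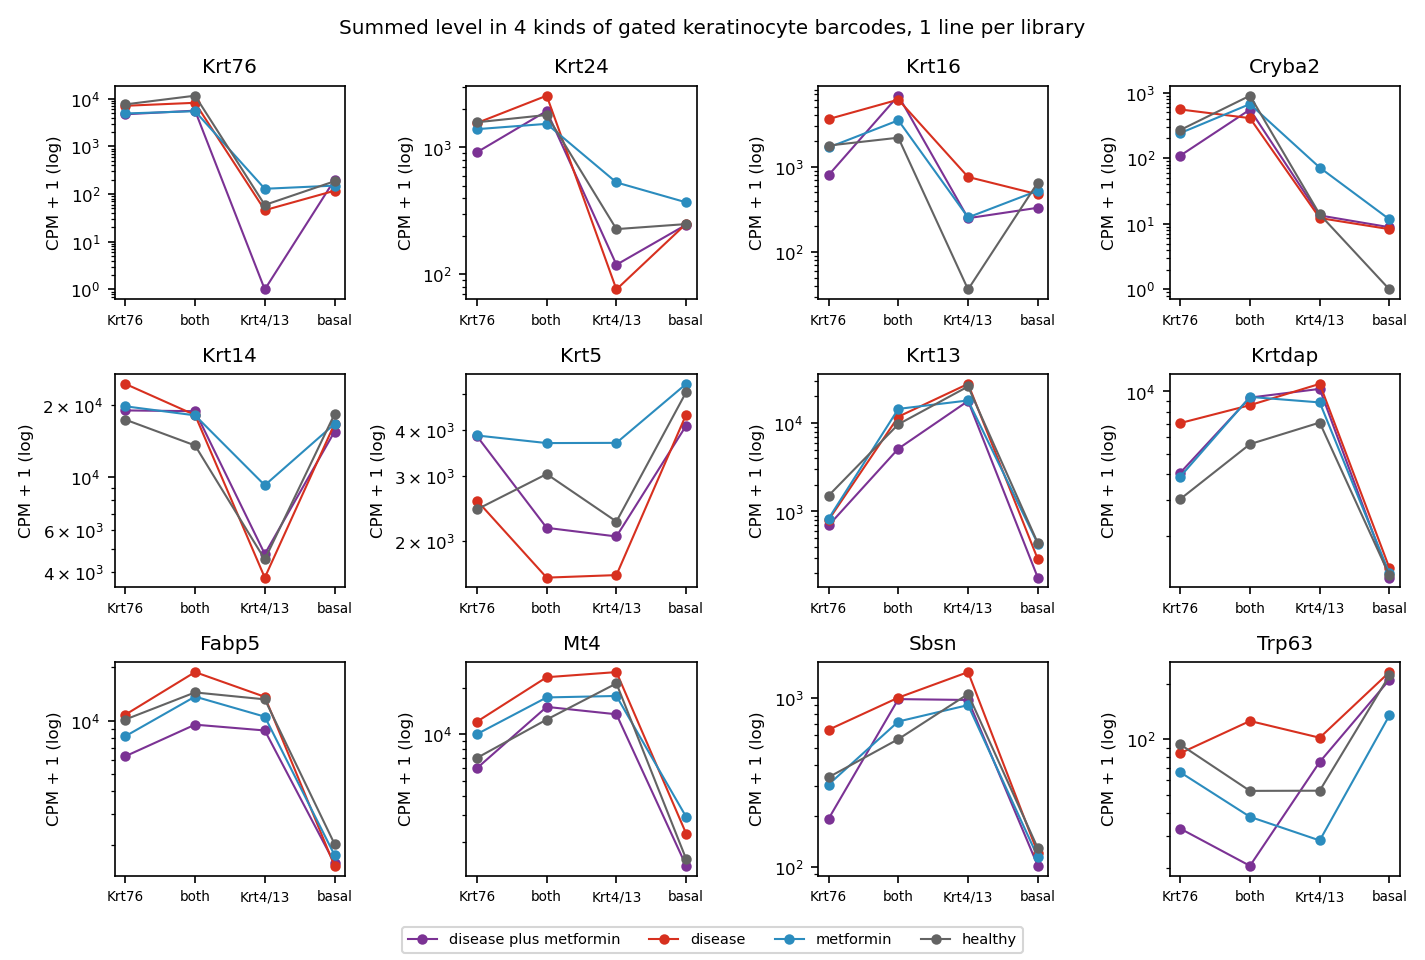
Level of 12 genes in the members (Krt76), the barcodes with both keratin sets (both), the Krt4 and Krt13 barcodes (Krt4/13) and the basal barcodes, as CPM + 1 on a log axis, with 1 line per library. Krt24, Krt16 and Cryba2 are higher in the members than in Krt4 and Krt13 or basal barcodes in all 4 libraries, and higher still in barcodes with both sets in all 4 for Krt24 and Krt16 and in 3 for Cryba2. Members lie between the Krt4 and Krt13 barcodes and the basal ones for Krtdap, Mt4 and Fabp5.

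The members were not uniform, and Krt16 and Krt15 divided them. Krt15, a type I keratin of the basal layer, was at 3497 CPM (3211 to 3802) in disease plus metformin, 603 (458 to 779) in disease, 1161 (988 to 1356) in metformin and 2288 (1980 to 2631) in healthy members, in 38, 11, 18 and 23 of them. In members with a Krt15 UMI, Krt16 stood at 167, 52.2, 126 and 205 CPM over the 4 libraries, against 2176, 5958, 3359 and 3386 CPM in members without one. Krt6b, a type II partner of Krt16, had the same order, with 92.5, 52.2, 97.7 and 45.6 CPM against 508, 2193, 1210 and 1302 CPM. Calm4 stood at 46.3, 131, 41.9 and 68.4 CPM in members with Krt15 and at 1302, 2280, 908 and 1326 CPM in those without. Single barcodes without Krt15 held much of it. In disease plus metformin, 22 and 20 of 69 Calm4 UMIs lay in barcodes of 7099 and 5939 UMIs that had no Krt76. In disease, 62 of 137 lay in 1 barcode of 1662 UMIs.

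Depth moved with this division. Members with Krt15 held a median of 2390, 3549, 4444 and 1615 UMIs, and those without it 1236, 1193, 1051 and 900. Members with Krt16 held a median of 976, 980, 1766 and 881 UMIs, and those without it 2692, 1566, 2102 and 1377. Krt16 was thus detected in the shallower members, although a deeper barcode has the greater chance of a UMI of any gene. The Krt16-positive members had more Krt10 (1128, 3183, 2194 and 1162 CPM, against 294, 172, 588 and 1025 CPM in those without Krt16) and more Krt6a (5754, 10568, 5850 and 6159 CPM, against 2480, 2741, 2405 and 1838 CPM). In healthy gingiva the Krt10 difference was small, with Krt10 in 10 of 23 members with Krt16 and in 13 of 31 without. Healthy members with Krt10 held less Krt16 (1007 CPM) than those without it (2303 CPM), the reverse of the other libraries.

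To compare detection at 1 depth, members with at least 1000 UMIs were thinned to 1000 UMIs each, which kept 43, 31, 37 and 31 members and left out 14, 19, 19 and 23. Krt15 was then in 62.8% of members (46.7 to 77.0) in disease plus metformin, 19.4% (7.45 to 37.5) in disease, 35.1% (20.2 to 52.5) in metformin and 48.4% (30.2 to 66.9) in healthy gingiva, and the unthinned shares were 66.7%, 22.0%, 32.1% and 42.6%. Krt16 was in 6.98% (1.46 to 19.1), 35.5% (19.2 to 54.6), 37.8% (22.5 to 55.2) and 29.0% (14.2 to 48.0), and without thinning it was in 10, 25, 27 and 23 members. Disease plus metformin was thus the library with the most Krt15-positive and the fewest Krt16-positive members at equal depth. These intervals are over the barcodes of 1 library each and cover counting error only.

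**Figure D3:**
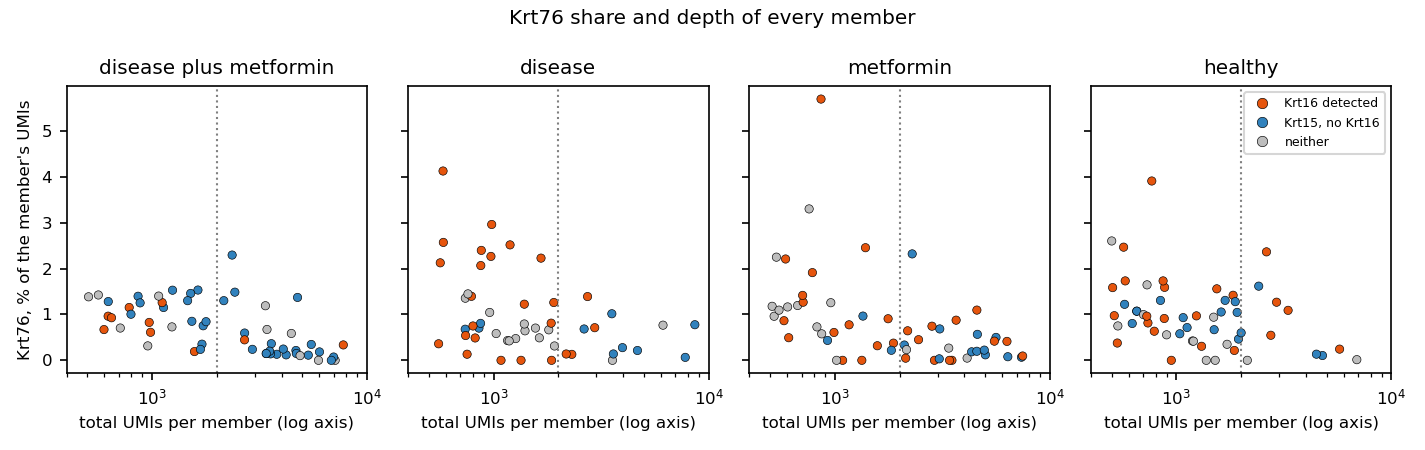
Each point is 1 member, placed by its total UMIs (log axis) and the percent of them that were Krt76, with 1 panel per library; orange marks a detected Krt16, blue a detected Krt15 without Krt16 and grey neither. Blue points predominate in disease plus metformin, orange ones lie mostly left of the dotted line at 2000 UMIs, and the Krt76 percent is lower in deeper barcodes.

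Genes were compared between 2 libraries where both together had 50 UMIs or more in the members (called measured here), and a 1.5-fold difference was counted, a rule of size and not a test. The first comparison set disease against healthy members. Disease members had more stress keratin mRNA, more of several differentiation genes and less Krt15, whereas the counting intervals of the rule keratins Krt76 and Krt10 and of the marker Krt24 included a log2 ratio of 0. Of 375 measured genes, 49 (13.1%) were higher and 26 (6.93%) were lower in disease, with a median log2 ratio of 0.07.

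Krt16 was higher in disease than in healthy members by 1.03 on the log2 scale (95% interval 0.75 to 1.32), and by 1.35 among members under 2000 UMIs. Krt6b stood at 1341 CPM in disease and 662 CPM in healthy members, a log2 ratio of 1.02 (0.56 to 1.49), and was in 22 of 50 against 15 of 54 members. Krt6a stood at 5373 and 3565 CPM (0.59, 0.39 to 0.80). Under 2000 UMIs Krt6b was at 1.36 and Krt6a at 0.96. These 2 genes are near-identical copies, so that reads could have been assigned to either. Of the 5 measured genes of the 24 on a stress and alarmin list, 4 were higher and none lower (Krt16, Krt6a, Krt6b and Krt17), with a median of 0.87, and these 4 are the wound keratins themselves. The calgranulins S100a8 and S100a9 on that list had 1 UMI each in disease members. With only the 16 disease and 13 healthy members that held both a mitochondrial and a Malat1 UMI, the Krt16 ratio was -0.19 and the Krt6b ratio -0.05, and with members chosen on Krt76 alone the Krt16 ratio was 0.58.

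Differentiation and calcium genes of disease members followed. Krtdap stood at 7036 CPM in disease and 3019 CPM in healthy members, a log2 ratio of 1.22 (1.01 to 1.43), and at 1.07 among members under 2000 UMIs. Mt4 stood at 12036 and 7015 CPM (0.78, 0.64 to 0.92), Calm4 at 1424 and 685 CPM (1.06, 0.60 to 1.52), and S100a6, a small calcium-binding protein, at 2536 and 1324 CPM (0.94, 0.61 to 1.27). One disease barcode held 45.3% of its Calm4 UMIs, and without the leading barcode of each library the ratio was 0.45, whereas it was 1.08 for Krtdap and 0.74 for Mt4. Txndc17, a thioredoxin-like protein, stood at 624 and 267 CPM (1.22, 0.51 to 1.98), and Ly6d, a Ly6-type surface protein of keratinocytes, at 4396 and 2799 CPM (0.65, 0.42 to 0.89).

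Of 40 cornified envelope genes, 6 were measured in disease against healthy members, 5 were higher and none was lower (median 1.504). Only Krtdap and Sbsn of those 5 were spread over members. Lor, Crct1, Lce3c, Cnfn and Rptn together came from 1 disease barcode of 1662 UMIs, which held 94.3% of their UMIs. Crct1 and Lce3c were at 956 and 530 CPM in disease members, against 34.8 and 0 CPM in healthy ones. Involucrin (Ivl) and Casp14, late markers of the cornifying layer, were at 0 in all 4 libraries, as were 11 of the 40 genes.

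Krt15, a basal keratin, was lower in disease members, at 603 CPM in disease and 2288 CPM in healthy members, a log2 ratio of -1.92 (-2.37 to -1.50) and of -3.17 (-4.16 to -2.31) among members under 2000 UMIs. The basal barcodes of these libraries held less Krt15 than the members, at 361 CPM in disease and 792 CPM in healthy gingiva. Krt5 and Krt14, the other basal keratins, did not go with Krt15, with ratios of 0.08 (-0.19 to 0.35) and 0.50 (0.40 to 0.59). Camk1d, a calcium-dependent kinase, was at 2037 and 3496 CPM (-0.78, -1.05 to -0.51), and at -0.46 under 2000 UMIs. Of 3 measured desmosome genes, Dsp (desmoplakin) was lower, at 301 and 511 CPM (-0.76, -1.49 to -0.05). Selenbp1 was at -0.46 (-0.84 to -0.08), short of 1.5-fold.

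Metformin against healthy members was the second comparison. Metformin members had less Krt15 and Selenbp1 and more Krt5 and metallothionein mRNA, and no stress keratin differed by 1.5-fold over all members. Of 426 measured genes, 45 (10.6%) were higher and 28 (6.57%) were lower, with a median log2 ratio of -0.04. All 9 measured mitochondrially encoded genes were among the higher ones, with a median of 1.54, and 38.3% of the mitochondrial UMIs of metformin members lay in 1 barcode. With mitochondrial UMIs held to at most 10%, that median was -0.37.

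Krt15 stood at 1161 CPM in metformin and 2288 CPM in healthy members, a log2 ratio of -0.98 (-1.29 to -0.67) and of -3.01 (-4.18 to -2.04) among members under 2000 UMIs, but of -0.38 with a gate of 10 UMIs. Selenbp1 stood at 849 and 1545 CPM (-0.86, -1.23 to -0.49), and at -0.29 under 2000 UMIs. Of the rule genes, the lower Krt76 of metformin members (-0.63, -0.79 to -0.48) was 0.18 (-0.04 to 0.40) under 2000 UMIs, so its direction turned with the depth of the members. Gpx2, an epithelial glutathione peroxidase, stood at 334 and 662 CPM (-0.99, -1.58 to -0.40). Hspb1, a small heat shock protein, stood at 1016 and 1649 CPM (-0.70, -1.05 to -0.35).

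Krt5 stood at 3869 CPM in metformin and 2439 CPM in healthy members (0.67, 0.43 to 0.90), but at 0.06 under 2000 UMIs. Mt1, a metallothionein induced by metals and stress, stood at 2258 and 999 CPM (1.18, 0.83 to 1.54), and Mt4 at 10003 and 7015 CPM (0.51, 0.37 to 0.65). S100a6 stood at 2570 and 1324 CPM (0.96, 0.65 to 1.27). Both metallothioneins and S100a6 kept a higher level in metformin members under 2000 UMIs, at 0.75, 0.92 and 1.20. Of the 5 measured stress and alarmin genes none was 1.5-fold higher or lower (median 0.15), with Krt16 at -0.07 (-0.38 to 0.23). Under 2000 UMIs Krt16 stood at 0.72, Krt6b at 0.69 and Krt6a at 0.58, the first 2 past 1.5-fold.

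The third comparison, disease plus metformin against disease, asked what accompanied the drug in diseased gingiva. Stress keratins, Krt24 and differentiation genes were lower with metformin and Krt15 was higher. Of 506 measured genes, 55 (10.9%) were higher and 59 (11.7%) were lower, with a median log2 ratio of 0.08. Disease plus metformin members were the deeper ones, with medians of 2154 and 1304.5 UMIs.

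Krt16 stood at 795 CPM in disease plus metformin and 3607 CPM in disease, a log2 ratio of -2.18 (-2.49 to -1.88) and of -1.44 (-1.85 to -1.05) among members under 2000 UMIs. Krt6b stood at 223 CPM in disease plus metformin and 1341 CPM in disease (-2.59, -3.17 to -2.04), and was in 8 of 57 against 22 of 50 members. Krt6a stood at 2849 and 5373 CPM (-0.92, -1.10 to -0.73). Under 2000 UMIs Krt6b was at -1.63 and Krt6a at -1.04. Krt24 (-0.77, -1.11 to -0.43) was lower as well, and was at -0.52 under 2000 UMIs. Krt10, a rule gene given as a description, stood at -1.61 (-2.08 to -1.15). Of the 5 measured keratins on a list of 11 further suprabasal keratins, 4 were lower (Krt16, Krt24, Krt6a, Krt6b) and 1 was higher, with a median of -0.92.

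The exception was Krt17, a stress and appendage keratin, at 4337 CPM in disease plus metformin and 488 CPM in disease (3.15, 2.72 to 3.61). Of its UMIs in disease plus metformin, 49.1% and 45.6% lay in 2 barcodes of 5939 and 7099 UMIs. These had 335 and 311 Krt17 UMIs, 9 and 26 of Krt1, none of Krt76 and 0 and 1 of Krt14, and so belonged to the members only through Krt1. Under 2000 UMIs the Krt17 ratio was -0.85. Krt17 was therefore higher in 2 barcodes and not over the members.

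Krtdap stood at 4044 CPM in disease plus metformin and 7036 CPM in disease (-0.80, -0.96 to -0.64), and Sbsn, another secreted differentiation protein, at 191 and 644 CPM (-1.76, -2.44 to -1.11). Both were as low under 2000 UMIs, at -0.69 and -1.78. Cryba2 stood at 108 and 551 CPM (-2.35, -3.23 to -1.54). Mt4 (-0.999, -1.12 to -0.87), Fabp5 (-0.78, -0.90 to -0.65) and Dbi, an acyl-CoA-binding protein (-1.02, -1.30 to -0.73), were also lower, but under 2000 UMIs Mt4 was at -0.20 and Fabp5 at -0.41, with Dbi at -0.70 and Cryba2 at -1.42. All 6 measured envelope genes were lower, 3 of them (Crct1, Lce3c, Lor) through the single disease barcode described above, and the median of -3.28 was -0.70 over the 3 genes still measured without the leading barcode of each gene.

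Krt15 stood at 3497 CPM in disease plus metformin and 603 CPM in disease (2.54, 2.14 to 2.95), and at 4.20 (3.35 to 5.18) under 2000 UMIs. Among the 8 disease plus metformin and 16 disease members with both a mitochondrial and a Malat1 UMI, the Krt15 ratio was 0.60 and the Krt16 ratio -1.26. Krt5 (0.58, 0.36 to 0.80) was at -0.20 under 2000 UMIs, and Gpx2 (0.84, 0.33 to 1.38) at -0.23. Snhg1, a host transcript of small nucleolar RNAs, stood at 407 and 83.1 CPM (2.29, 1.23 to 3.56). Of the fibroblast marker list, the members held 122 UMIs in disease plus metformin and 25 in disease (776 and 260 CPM), with Dcn, a matrix proteoglycan, at 496 and 125 CPM. Gland transcripts stood at 4744 and 1757 CPM. The part of these cell types in the ratios was not tested.

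In the fourth comparison, disease plus metformin against metformin, 66 of 572 measured genes (11.5%) were higher and 48 (8.39%) were lower, with a median log2 ratio of 0.20. Krt16 (-1.08, -1.40 to -0.76), Krt6b (-1.50, -2.11 to -0.92), the rule gene Krt10 (-1.77, -2.21 to -1.34), Krt24 (-0.61, -0.93 to -0.29) and Mt4 (-0.73, -0.85 to -0.61) were lower with disease, and Krt15 was higher (1.59, 1.33 to 1.85). Under 2000 UMIs the ratios were -0.81 for Krt16, -0.96 for Krt6b, -1.70 for Krt10, -0.72 for Krt24 and 4.04 for Krt15, but -0.41 for Mt4, short of 1.5-fold. Among members with both a mitochondrial and a Malat1 UMI the Krt15 ratio was 0.19. Krtdap was at 4044 CPM in disease plus metformin and 3876 CPM in metformin (0.06, -0.11 to 0.23), and Sbsn at 191 and 305 CPM. Cdk8, a kinase of the Mediator complex, stood at 375 and 1307 CPM (-1.80, -2.25 to -1.37), and Camk1d at 1132 and 2744 CPM (-1.28, -1.54 to -1.02). Under 2000 UMIs Cdk8 was at -1.002 and Camk1d at -0.72. Cst3, the protease inhibitor cystatin C, stood at 2168 and 1241 CPM (0.80, 0.54 to 1.08), and at 1.22 under 2000 UMIs. All 8 measured mitochondrially encoded genes were lower, in libraries where mitochondrial UMIs made up 0.0617% (disease plus metformin) and 1.17% (metformin) of member UMIs.

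**Figure D4:**
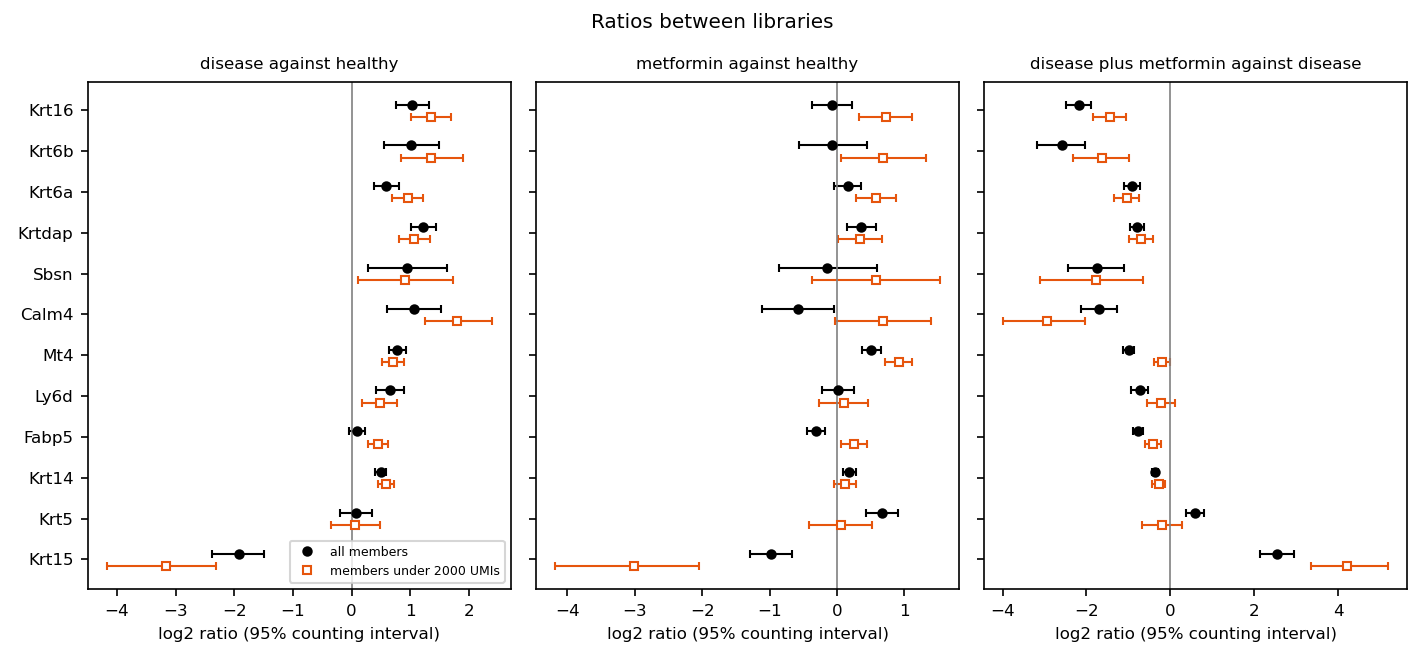
Log2 ratio of 12 genes in 3 comparisons, with black points for all members and orange squares for members under 2000 UMIs, and lines for exact conditional binomial 95% intervals (counting error only). Krt16 and Krt6b lie right of 0 in disease over healthy and left of 0 in disease plus metformin over disease, and Krt15 lies on the opposite sides.

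Disease against healthy and disease plus metformin against metformin share no library, so they can be set side by side. Of 367 genes measured in both, 5 were higher in both, which was 11.6% of the 43 higher in the first and 15.2% of the 33 higher in the second. Over all 367 genes, 11.7% were higher in the first and 8.99% in the second. Those lower in both numbered 9, or 36.0% of 25 and 31.0% of 29, with 6.81% and 7.90% lower over all. Txndc17 (1.22 and 0.58), Ndufb8, a subunit of respiratory complex I (0.96 and 0.65), and Cst3 (0.51 and 0.80) had intervals above 0 in both, and Camk1d (-0.78 and -1.28) and Cdk8 (-0.46 and -1.80) below 0 in both. Across these genes, which are not independent replicates, Pearson's r was 0.05. Gm42418, a transcript that overlaps a ribosomal RNA repeat, was also lower on the disease side of both comparisons. It stood at 31877 CPM in disease and 60088 CPM in healthy members. In disease plus metformin it stood at 27019 CPM and in metformin at 62602 CPM. Whether Camk1d and Cdk8 went with it barcode by barcode was not tested.

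Metformin against healthy and disease plus metformin against disease are likewise disjoint. Of 402 genes measured in both, 6 were higher in both (20.0% of 30 and 18.8% of 32) and 5 were lower in both (19.2% of 26 and 11.9% of 42), with r of -0.10 across genes. Over all 402 genes, 7.46% and 7.96% were higher and 6.47% and 10.4% were lower. These shares, of single libraries, carry no test. Krt5 was higher in both metformin libraries (0.67 and 0.58). Hspb1 (-0.70 and -0.56), Dmkn, a secreted differentiation protein (-0.53 and -0.61), Fabp5 (-0.31 and -0.78) and the galectin Lgals7 (-0.24 and -0.22) were lower in both, and so was the rule gene Krt76 (-0.63 and -0.59). Camk1d, lower on the disease side of the other pair, was lower with metformin in both of these comparisons too. Its interval bound nearest 0 was -0.13. For Krt5, Krt76 and Fabp5 these shared directions were those of all members. Under 2000 UMIs the ratios were 0.06 and -0.20 for Krt5 and 0.18 and -0.10 for Krt76. There Fabp5 stood higher in metformin (13684 CPM) than in healthy members (11509 CPM). It stood lower in disease plus metformin (11849 CPM) than in disease (15703 CPM).

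Several gene groups were near absent from the members at this depth. Of 17 clock genes, 14 had at most 3 UMIs in each library, as had 16 of 24 AMP-kinase, mTOR and lipid genes, 16 of 19 NF-kB and chemokine genes, 17 of 21 interferon genes and 21 of 27 barrier lipid genes. No clock or AMP-kinase gene was measured in any comparison, and Cxcl1 and Il1b were at 0 in all 4 libraries. A count of 0 allowed up to 3 counts, or 19.1, 31.2, 21.8 and 34.8 CPM in the 4 libraries.

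Most markers of other cell types were low in the members, but salivary gland genes were not, and levels differed between libraries. Of 13 leukocyte genes, 13, 12, 12 and 12 were at 0 in the 4 libraries, with 0, 1, 1 and 1 UMI in all. Muscle and hard hair keratin genes were at 0 throughout. Endothelial genes had 1, 0, 3 and 39 UMIs, of which 97.4% in healthy members lay in 1 barcode. Salivary gland genes, in part limited by the rule, stood at 4744, 1757, 9865 and 6655 CPM. Nearly every member held some of them. At least 1 gland UMI was in 57, 49, 51 and 54 members, and at least 3 were in 55, 29, 28 and 49. Dcpp1, a rule gene, was in 24, 0, 13 and 36 members, at 1145, 0, 944 and 1382 CPM. It did not pass the filters of the ranking used for the differences above. One barcode held 80.6%, 46.2% and 16.8% of its UMIs in disease plus metformin, metformin and healthy members. Muc5b, a gel-forming mucin, stood at 1005, 790, 5321 and 2358 CPM, with 64.3% of its metformin UMIs in 1 barcode. RNA quality also differed. Members with no mitochondrial UMI made up 66.7%, 32.0%, 48.2% and 53.7%, and 33, 30, 22 and 30 members had no Malat1, a nuclear RNA found in most intact cells. Gm42418, which overlaps a ribosomal RNA repeat, stood at 27019, 31877, 62602 and 60088 CPM, higher in the 2 libraries without disease. The part of these in the differences above was not tested.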

How the data were processed

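Per the submitters' processing notes, reads were converted with bcl2fastq and counted with Cell Ranger 7.0.1 on mm10. Per the file headers and values, the deposited matrices hold counts (UMIs for each gene in each barcode) without normalization, and the labels name no further filter. The matrices list 32285 genes under 32245 symbols, and genes that share a symbol were summed. Here, raw counts of the members were summed per library and given as CPM with exact Poisson 95% intervals; ratios have conditional exact binomial intervals and shares exact Clopper-Pearson ones. With 1 library per group no p-value was computed, and PCR or capture effects beyond counting are not in the intervals.

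The members and gene lists were chosen with earlier results of these data known. Named genes were the markers, the rule genes, the 15 leading genes, the 6 highest and 6 lowest per comparison by the interval bound nearest 0 (no barcode over 20% of UMIs where higher), shared genes of disjoint comparisons and up to 4 members of a list. In the library where it was higher, a ranked gene also needed a CPM in members at least that over all kept barcodes. Genes resting on single barcodes (Krt17, Calm4, the late envelope genes) and genes at 0, and Krt15 as a divider of members, were picked after their values were seen. The ratio procedure was tested on simulated data. Alternatives changed the keratin gate, member depth, RNA quality, mitochondrial and gland limits, weighting, scaling and gene filters. Promoters came from RefSeq GRCm38.p6 and gene positions from an annotation of GRCm38. Python 3.11.15, numpy 2.4.6, scipy 1.17.1, pandas 2.3.3 and matplotlib 3.10.9 were used.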

Additional observations from a re-analysis of the deposited data

Results flagged for a closer look

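In the members, 7 genes differed by at least 1.5-fold in opposite directions in comparisons of 1 kind that share no library, with 1 library on each side, and the difference between the comparisons was not tested. With disease set against no disease, the log2 ratio of Krt15 was 1.59 for disease plus metformin over metformin and -1.92 for disease over healthy. Krt16 had -1.08 for disease plus metformin over metformin and 1.03 for disease over healthy, Krt6b had -1.50 and 1.02, Cryba2 had -1.15 and 1.04, Mt4 had -0.73 and 0.78, and the mitochondrial phosphate carrier Slc25a3 had 0.78 and -1.13. Among members with both a mitochondrial and a Malat1 UMI, disease over healthy gave -0.19 for Krt16, -0.046 for Krt6b and -0.0052 for Cryba2, so the directions were no longer opposite. Under 2000 UMIs Mt4 had -0.41 for disease plus metformin over metformin, short of 1.5-fold.

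With metformin set against no metformin, the log2 ratio of Krt15 was 2.54 for disease plus metformin over disease and -0.98 for metformin over healthy. Gpx2 had 0.84 for disease plus metformin over disease and -0.99 for metformin over healthy. Of these genes, Mt4 alone had no barcode with over 20% of its UMIs in any of the libraries compared.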

How the results depend on the processing

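Under 13 other settings most log2 ratios and list medians were classed as the same, whereas 14 of 28 member shares and 42 of 104 gene counts were classed as moved. Of 2710 recomputed log2 ratios of single genes, 2246 stayed within the counting interval of the reported value, 436 moved beyond it, and 28 that had passed 1.5-fold turned in sign, as did 4 of 459 list medians. The settings of Krt76 alone at 5 UMIs, gate keratins at 0.5% of UMIs and members under 2000 UMIs were chosen after seeing the data. No paired analysis was possible because each group has 1 library. The cause of the turns was not tested.

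With only members that held a mitochondrial and a Malat1 UMI (8, 16, 20 and 13 members), disease over healthy gave Krt16 -0.19, Krt6b -0.046, Cryba2 -0.0052, a stress list median of -0.046 and a suprabasal keratin median of -0.10. The same setting gave metformin over healthy Gpx2 0.087 and Krt1 1.24, disease plus metformin over disease Dmkn 0.15, Gsta2 1.08 and Krt17 -0.73, and disease plus metformin over metformin Gsta2 1.64. Metformin over healthy gave a mitochondrial median of -0.37 with mitochondrial UMIs at most 10% and of -0.14 with gate keratins at 0.5%, Krt76 0.18 and Mrpl30 -0.085 under 2000 UMIs, and Lars2 -0.62 with Krt76 alone and -0.016 without the leading barcode. Disease plus metformin over disease gave Gpx2 -0.17 and Krt17 -1.33 with Krt76 alone, Gpx2 -0.19, Krt17 -0.46 and Krt76 0.074 with gate keratins at 0.5%, and Gpx2 -0.23 and Krt17 -0.85 under 2000 UMIs. Disease plus metformin over metformin gave Gpx1 -0.15, Gpx2 -0.093 and Krt17 -1.003 with gate keratins at 0.5%, Gpx1 -0.85, Gpx2 -0.15, Krt17 -1.92 and Ndufb8 -0.15 under 2000 UMIs, and Krt17 -1.005 with Krt76 alone.

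The share of members in disease plus metformin, disease, metformin and healthy gingiva was 1.99%, 1.77%, 1.09% and 2.22% with a gate of 10 UMIs, 2.60%, 1.83%, 1.49% and 2.37% with at least 1000 UMIs, and 0.483%, 0.945%, 0.807% and 0.995% with mitochondrial and Malat1 UMIs. With gate keratins at 0.5% it was 2.05% in disease plus metformin and 1.41% in metformin.

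The counts of genes past 1.5-fold moved as follows. The number of measured genes also depends on the setting and is not given here. A changed count is therefore not by itself a changed share, and these counts cannot be set against the percentages above. In disease over healthy the higher genes numbered 19 with mitochondrial and Malat1 UMIs, 21 at 100 UMIs per gene and 384 at 10, and the lower ones 15, 12 and 274, with 12 under 2000 UMIs. In metformin over healthy the higher genes numbered 23 with a gate of 10, 26 with mitochondrial and Malat1 UMIs, 19 with gate keratins at 0.5%, 20 under 2000 UMIs, 19 at 100 UMIs per gene and 548 at 10. The lower ones numbered 17 with a gate of 10, 14 with gate keratins at 0.5%, 9 under 2000 UMIs, 12 at 100 UMIs per gene, 327 at 10 and 18 without the leading barcode. In disease plus metformin over disease the higher genes numbered 33 with a gate of 10, 25 with mitochondrial and Malat1 UMIs, 15 with gate keratins at 0.5%, 9 under 2000 UMIs, 19 at 100 UMIs per gene and 408 at 10. The lower ones numbered 37, 21, 32, 21, 26 and 410 under those settings and 38 without the leading barcode. In disease plus metformin over metformin the higher genes numbered 20 with gate keratins at 0.5%, 14 under 2000 UMIs, 29 at 100 UMIs per gene and 425 at 10, and the lower ones 25, 19, 25 and 597, with 26 at a gate of 10 and 27 with mitochondrial and Malat1 UMIs. Depth limits what can be seen, since a gene at 0 may have stood at up to 19.1 to 34.8 CPM.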
